A study of Mus musculus with 2 samples.

Results

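The stefin A family was followed as 8 genes of the 31053 listed in both feature tables. Stfa1, Stfa2, Stfa3, Stfa2l1, BC100530, Gm5483 and 2010005H15Rik are the mouse stefin A genes followed here, and Cstb encodes stefin B. Csta1, Gm5416 and BC117090 were also measured, are left out of all stefin A sums and are given apart below. The 8 genes were picked by symbol, with the ratio between the libraries already known from these data. That ratio is therefore given as a description and tests nothing. Single-cell RNA was sequenced from cells that had been rinsed from the vitreous and retina of C57BL/6 mice after intraocular zymosan, a yeast cell wall preparation, and purified on magnetic beads against Ly6G, a surface protein of mouse neutrophils. The aCXCR2 library came from mice given antiserum to CXCR2, the receptor through which neutrophils sense CXC chemokines, and the NRS library from mice given the NRS serum of the labels. Zymosan, strain and bead purification were common to both. The number and age of the mice and the time after zymosan are not given in the sources used here. Each group was 1 library. With no replicates nothing was tested, and all intervals are 95% intervals for counting error only.

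Stefins are small cytosolic proteins of the cystatin superfamily that block cysteine cathepsins, the papain-like proteases of lysosomes, by inserting into their active site. Stefin B is made by nearly all cells. The stefin A genes have multiplied in rodents into a tandem cluster, and in mice their transcripts are known from neutrophils and from stratified epithelia. Neutrophils carry cathepsin C, which activates the serine proteases of their granules, beside the cathepsins they share with macrophages.

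The aCXCR2 library held 5551 barcodes and 85748842 unique molecular identifiers (UMIs), and the NRS library 7314 barcodes and 61386486 UMIs. A barcode was kept if it had 500 UMIs or more, 200 genes or more and a mitochondrial share of 10% or less, which left 4826 aCXCR2 cells with a median of 10383.5 UMIs and 5655 NRS cells with a median of 4759. The libraries shared 53 of these barcodes. Clustering without the 8 genes gave 18 clusters. Of these, 7 were neutrophil-like (2622 aCXCR2 and 2528 NRS cells), 4 macrophage-like (1765 and 604) and 2 photoreceptor-like (273 and 819), the last used as a background for free RNA. The macrophage-like cells made up 36.6% of aCXCR2 and 10.7% of NRS cells, although both samples are labelled Ly6G+. Different clusters held most neutrophil-like cells of each library: clusters 2, 6 and 9 held 938, 696 and 515 aCXCR2 cells against 56, 13 and 17 NRS cells, and clusters 1, 4 and 8 held 78, 101 and 49 aCXCR2 cells against 936, 758 and 504 NRS cells. Cluster 10 held 245 and 244.

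The 7 stefin A genes lie on chromosome 16 within 298.6 kb (chr16:36156811-36455392, GRCm38, GENCODE vM21), 4 on the plus and 3 on the minus strand, and all are annotated as protein coding. Cstb lies apart at chr10:78425669-78427622 on the plus strand. The 100 bases before each RefSeq transcription start (GRCm38.p6) are shown because 6 of the 7 stefin A genes hold an identical stretch of 12 bases there, in capitals, which the remaining gene lacks. GENCODE vM21 starts some genes elsewhere: 2010005H15Rik at 36221468, Stfa1 at 36276951, BC100530 at 36367748 and Stfa2 at 36408457. By that annotation the windows of these genes lie wholly or mostly inside the gene. What the windows hold or lack therefore depends on the start used.
Stfa2l1, chr16:36156711-36156810 (+): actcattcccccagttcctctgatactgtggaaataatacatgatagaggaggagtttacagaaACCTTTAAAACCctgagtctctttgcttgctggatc
Gm5483, chr16:36184112-36184211 (+): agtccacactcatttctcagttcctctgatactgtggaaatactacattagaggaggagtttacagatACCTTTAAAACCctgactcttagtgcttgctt
2010005H15Rik, chr16:36221462-36221561 (+): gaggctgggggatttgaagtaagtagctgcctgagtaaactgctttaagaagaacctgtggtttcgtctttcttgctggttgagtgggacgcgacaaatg
Stfa1, chr16:36277048-36277147 (+): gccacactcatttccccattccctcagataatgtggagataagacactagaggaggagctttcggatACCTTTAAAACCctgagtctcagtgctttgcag
BC100530, chr16:36367571-36367670 (-): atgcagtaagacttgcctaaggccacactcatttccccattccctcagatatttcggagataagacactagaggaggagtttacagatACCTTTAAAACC
Stfa2, chr16:36408364-36408463 (-): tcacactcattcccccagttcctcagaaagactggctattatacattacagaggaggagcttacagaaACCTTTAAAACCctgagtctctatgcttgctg
Stfa3, chr16:36455393-36455492 (-): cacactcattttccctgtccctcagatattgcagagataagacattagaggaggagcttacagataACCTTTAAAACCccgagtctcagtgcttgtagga
The stretch ACCTTTAAAACC was read from the members themselves. On either strand it stood in the 100 bases before 10 of 32851 RefSeq start sites (0.0304%), and the other 4 of these were Csta3, Cstdc3, Gm39539 and Gm7260. Its inner TTTAAA, which lies within it, was in 4.39% of all windows. In BC100530 the stretch ended at the last base before the RefSeq start. In the other 5 its last base lay 21 to 25 bases before that start. Letters of 3 myeloid factor motifs were searched on both strands: GAGGAAGT (PU.1) was in none of the 7 windows and 1.15% of all, TGANTCA (AP-1) in none and 2.73% of all, and TTNNGCAA (C/EBP) in BC100530 alone and 3.43% of all. Over 15 pairs the 6 windows with the stretch were 50% to 83.5% identical (median 75.7%), and that of 2010005H15Rik was 38.7% to 45.2% identical to them.

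The coding sequences do not divide the genes in that way. Over the 21 stefin A pairs the coding sequences were 73.1% to 97.9% identical (median 79.3%), and each was 52.1% to 62.2% identical to that of Cstb. The closest pairs were Stfa1 with BC100530 and Gm5483 with 2010005H15Rik, shown without stop codon (GENCODE vM21 exons on GRCm38) because members of each pair were measured apart in the same cells. Capitals mark bases that differ within a pair.
Stfa1: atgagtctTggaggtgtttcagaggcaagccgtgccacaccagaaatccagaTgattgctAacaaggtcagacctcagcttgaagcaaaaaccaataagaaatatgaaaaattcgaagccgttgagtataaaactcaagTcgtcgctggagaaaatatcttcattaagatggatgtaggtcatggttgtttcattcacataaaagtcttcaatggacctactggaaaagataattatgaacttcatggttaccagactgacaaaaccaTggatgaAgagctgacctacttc
BC100530: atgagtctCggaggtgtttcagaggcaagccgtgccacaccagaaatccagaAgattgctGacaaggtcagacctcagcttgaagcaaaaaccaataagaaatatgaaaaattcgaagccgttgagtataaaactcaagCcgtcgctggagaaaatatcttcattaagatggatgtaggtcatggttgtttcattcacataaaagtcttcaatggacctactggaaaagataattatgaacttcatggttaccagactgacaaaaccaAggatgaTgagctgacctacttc
Gm5483: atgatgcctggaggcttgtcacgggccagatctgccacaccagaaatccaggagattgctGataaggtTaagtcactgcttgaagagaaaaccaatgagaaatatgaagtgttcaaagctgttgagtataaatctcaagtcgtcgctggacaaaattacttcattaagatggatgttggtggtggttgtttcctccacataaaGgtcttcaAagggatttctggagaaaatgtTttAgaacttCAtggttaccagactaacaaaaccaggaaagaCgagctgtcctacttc
2010005H15Rik: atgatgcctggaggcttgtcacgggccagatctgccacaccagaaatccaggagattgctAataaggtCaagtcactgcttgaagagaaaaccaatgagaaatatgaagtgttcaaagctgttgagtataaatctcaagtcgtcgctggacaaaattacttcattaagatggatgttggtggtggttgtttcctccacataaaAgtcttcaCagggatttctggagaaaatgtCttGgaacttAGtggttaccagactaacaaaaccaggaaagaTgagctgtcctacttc
Stfa1 and BC100530 differed at 6 of 291 bases, and Gm5483 and 2010005H15Rik at 9 of 291. The windows before the RefSeq starts of the second pair were 43.0% identical. Stfa2 and Stfa2l1, at 96.4%, were the next closest. UMIs come from 98-base reads near the 3′ end, so the last 500 bases of each transcript were checked against 141767 annotated transcripts. Reads unique to the gene were 100% for Stfa2, Stfa3, Stfa2l1 and Cstb, 92.3% for Stfa1, 90.8% for 2010005H15Rik, 88.3% for Gm5483 and 82.1% for BC100530. Shared reads fell within the 2 pairs, and for BC100530 also in BC117090, so counts of these 4 genes carry some uncertainty from a near copy. Reads within 2 mismatches of another member were more frequent, 55.6% for Stfa1 and for BC100530, 53.9% for Gm5483, 42.4% for 2010005H15Rik, 37.3% for Stfa2l1 and 32.1% for Stfa2, and 0 for Stfa3 and Cstb. The part of such near matches in the counts was not tested.

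Neutrophil-like cells of the aCXCR2 library carried more stefin A transcripts per total UMI than those of the NRS library. The 7 genes together reached 5352 CPM (UMIs scaled to the total UMIs of the class; interval 5322 to 5381) in aCXCR2 cells and 1732 CPM (1708 to 1756) in NRS cells, a log2 ratio of 1.63 (1.61 to 1.65). These cells held 85.5% of all stefin A UMIs of the aCXCR2 library and 63.2% of those of the NRS library. The NRS value depends on which clusters take the name, and was 47.8% at Leiden resolution 0.5 and 21.8% with a naming prior of 10 CPM, where the aCXCR2 values were 88.3% and 84.3%. After each cell was thinned to 1000 UMIs, a stefin A UMI was found in 60.5% of 2578 aCXCR2 cells (58.6% to 62.4%) and 29.4% of 2354 NRS cells (27.6% to 31.3%), with 44 and 174 shallower cells left out. Without thinning the shares were 76.5% and 40.7%, at median depths of 7671 and 4389 UMIs. Photoreceptor-like cells, which are not known to express stefin A, gave thinned shares of 6.42% in aCXCR2 and 0.833% in NRS, and levels of 40.5 and 10.9 CPM at median depths of 4762 and 3735 UMIs. Stefin A in neutrophil-like cells was therefore far above this background in both libraries.

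Gm5483, a stefin A gene model that RefSeq calls Cstdc4, had the highest level, with 2307 CPM in aCXCR2 and 978 CPM in NRS neutrophil-like cells (log2 ratio 1.24, interval 1.21 to 1.27). Stfa2l1, the stefin A2-like gene, had 1779 CPM in aCXCR2 and 593 CPM in NRS cells (1.58, 1.55 to 1.62). Levels of the other 5 were several-fold lower in both libraries, and their ratios were larger. Stfa1 had 404 CPM in aCXCR2 and 56.7 CPM in NRS cells (2.83, 2.72 to 2.95). BC100530, the near copy of Stfa1, had 353 CPM in aCXCR2 and 31.5 CPM in NRS cells (3.49, 3.34 to 3.64). Stfa2 had 212 CPM in aCXCR2 and 21.5 CPM in NRS cells (3.31, 3.12 to 3.49). All 3 stood above the background of photoreceptor-like cells, where they had 6.24, 1.87 and 0.624 CPM in the aCXCR2 library. In photoreceptor-like cells of the NRS library they had 0.253, 0.632 and 0 CPM. For that 0 a floor of 3 counts is 0.379 CPM, and the exact interval reaches 0.466 CPM. 2010005H15Rik, which RefSeq calls Csta2, had 203 CPM in aCXCR2 and 42.8 CPM in NRS cells (2.25, 2.11 to 2.38). Stfa3, the lowest, had 93.1 CPM in aCXCR2 and 8.08 CPM in NRS cells (3.53, 3.23 to 3.84). Counting intervals of neighbours in this order overlap for 2010005H15Rik and Stfa2 in the aCXCR2 library (197 to 209 and 206 to 218 CPM), and for no other neighbours in either library. Each UMI marks 1 captured 3′ end, so these levels are not scaled by length.

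All 7 were at least 2-fold higher in aCXCR2 cells, against 2.15% (66) of the 3063 genes with at least 50 CPM in either library. This contrast chose the genes, so nothing is read from that count. Their median log2 ratio was 2.83, beside −0.41 for all 3063 genes. Ordered by ratio from the highest, Stfa3 was 5, BC100530 6, Stfa2 8, Stfa1 9, 2010005H15Rik 16, Stfa2l1 28 and Gm5483 41 of 3063.

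Cstb went the other way. It had 1178 CPM in aCXCR2 and 2220 CPM in NRS neutrophil-like cells, a log2 ratio of −0.91 (−0.94 to −0.89), which put it at 2696 of 3063 genes. Its thinned share was 44.3% in aCXCR2 and 67.3% in NRS cells. In NRS neutrophil-like cells Cstb was above the summed stefin A genes, and in aCXCR2 cells it was below them. Another scaling shifts every ratio of the class alike: TMM factors of edgeR in place of total UMIs add 0.63 to the log2 ratio, and median of ratios factors add 0.68. The median of all 3063 genes is then 0.22 or 0.27, Cstb is at −0.28 or −0.23 and the stefin A sum at 2.26 or 2.31. The split of genes changes with it, with 260 higher and 30 lower by 2-fold under TMM and 66 higher and 271 lower on total UMIs. In macrophage-like cells the same factors shift ratios by less than 0.01.

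Other transcripts differed between the same cells. The 12 neutrophil markers summed to 165559 CPM in aCXCR2 and 51620 CPM in NRS neutrophil-like cells, with 10 of 12 higher in aCXCR2 and none at 0, a log2 ratio of 1.68. S100a8 and S100a9, which encode the calcium-binding proteins abundant in neutrophil cytosol, were most of this sum. The 9 photoreceptor markers summed to 90.7 CPM in aCXCR2 and 986 CPM in NRS neutrophil-like cells, with 0 of 9 higher in aCXCR2 and none at 0. The 13 monocyte or macrophage markers summed to 1010 CPM in aCXCR2 and 1336 CPM in NRS cells, with 8 of 13 higher in aCXCR2 and none at 0. The part of these in the stefin A ratios was not tested.

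**Figure D1:**
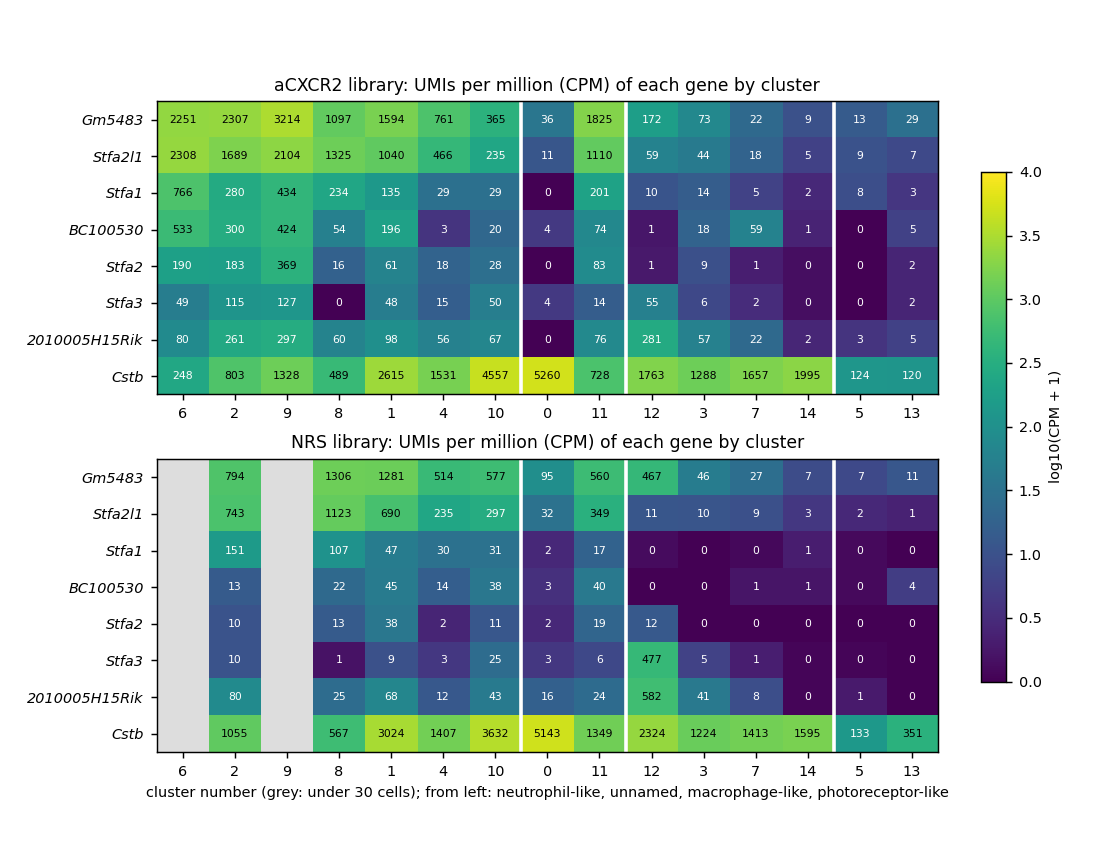
Level (CPM, printed in each cell; colour is log10 of CPM + 1) of the 8 genes by cluster in the aCXCR2 library (top) and the NRS library (bottom). White lines part the classes, clusters with under 30 cells in a library are grey, and clusters 15 to 17 are not drawn. Stefin A levels are highest in clusters 6, 2 and 9 of the aCXCR2 library, and Cstb is highest in clusters 10 and 0.

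Among neutrophil-like clusters with at least 30 cells in the library, the summed stefin A genes were highest in cluster 9 of the aCXCR2 library at 6970 CPM, followed by cluster 6 at 6177 CPM and cluster 2 at 5134 CPM. Cluster 9 was led by Ccl4, Prok2 and Cxcl2, cluster 6 by Retnlg, and cluster 2 by Pglyrp1 and Wfdc21. In the NRS library the highest such cluster was cluster 8, led by Hdc and Cxcr2, at 2597 CPM, against 2787 CPM for that cluster in the aCXCR2 library. Cluster 10, led by Prok2 and Serf1 and split evenly between the libraries, had the lowest level of the neutrophil-like clusters in the aCXCR2 library, 794 CPM, against 1022 CPM in NRS. Cluster 10 was at the same time the neutrophil-like cluster richest in Cstb, with 4557 CPM in aCXCR2 and 3632 CPM in NRS. The lowest Cstb of any neutrophil-like cluster was 248 CPM, in aCXCR2 cells of cluster 6. Unnamed cluster 0, nearly all NRS and led by Itpr2, Gpnmb and Gdf15, had still more Cstb, 5260 CPM in aCXCR2 and 5143 CPM in NRS, and only 54.7 and 152 CPM of stefin A.

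Within neutrophil-like clusters that held at least 30 cells of each library, ratios on total UMIs were mostly nearer to 0 than over the class. For the summed stefin A genes the log2 ratio was 1.51 (1.39 to 1.63) in cluster 2, 0.73 (0.59 to 0.88) in cluster 4, 0.54 (0.46 to 0.63) in cluster 1, 0.10 (−0.03 to 0.23) in cluster 8 and −0.37 (−0.47 to −0.26) in cluster 10. The class value of 1.63 lay within the interval of cluster 2 and above those of the other 4. Clusters 6 and 9, which carry the highest levels, have too few NRS cells for a ratio, and library and cluster cannot be told apart there.

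The members differed in how they kept their ratio within clusters. 2010005H15Rik and Stfa2 had a higher level in aCXCR2 cells in 5 of 5 clusters, with log2 ratios of 0.53 to 2.27 and 0.31 to 4.25. For Stfa2 the interval held 0 in cluster 1 (−0.01 to 1.31) and in cluster 8 (−2.06 to 2.03). In cluster 1 the aCXCR2 UMIs of each gene came from 2 of 78 cells. The share of cells with a UMI was lower in aCXCR2 there, 2.56% against 5.77% in NRS for 2010005H15Rik and 2.56% against 2.99% for Stfa2. Stfa3 was higher in the 4 clusters where it had UMIs in both libraries, by 1.0 to 3.57. Stfa1 ranged over −0.13 to 1.53, BC100530 over −2.29 to 4.54, and Stfa2l1 over −0.34 to 1.19. The lowest Stfa1 value, in cluster 10, had an interval that held 0 (−0.72 to 0.46). That of BC100530, in cluster 4, rests on 1 aCXCR2 UMI, and its interval held 0 (−7.62 to 0.26). In cluster 10 BC100530 was at −0.89 (−1.51 to −0.28). Gm5483, the most abundant, ranged over −0.66 to 1.54 and was lower in aCXCR2 cells in clusters 8 and 10. The highest value of each of Stfa2, Stfa3, BC100530, Stfa2l1 and Gm5483 came from cluster 2, where the NRS side was 56 cells with 3 UMIs each of Stfa2 and Stfa3 and 4 of BC100530. Cstb stayed within −0.39 to 0.33 in all 5, beside its class ratio of −0.91.

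**Figure D2:**
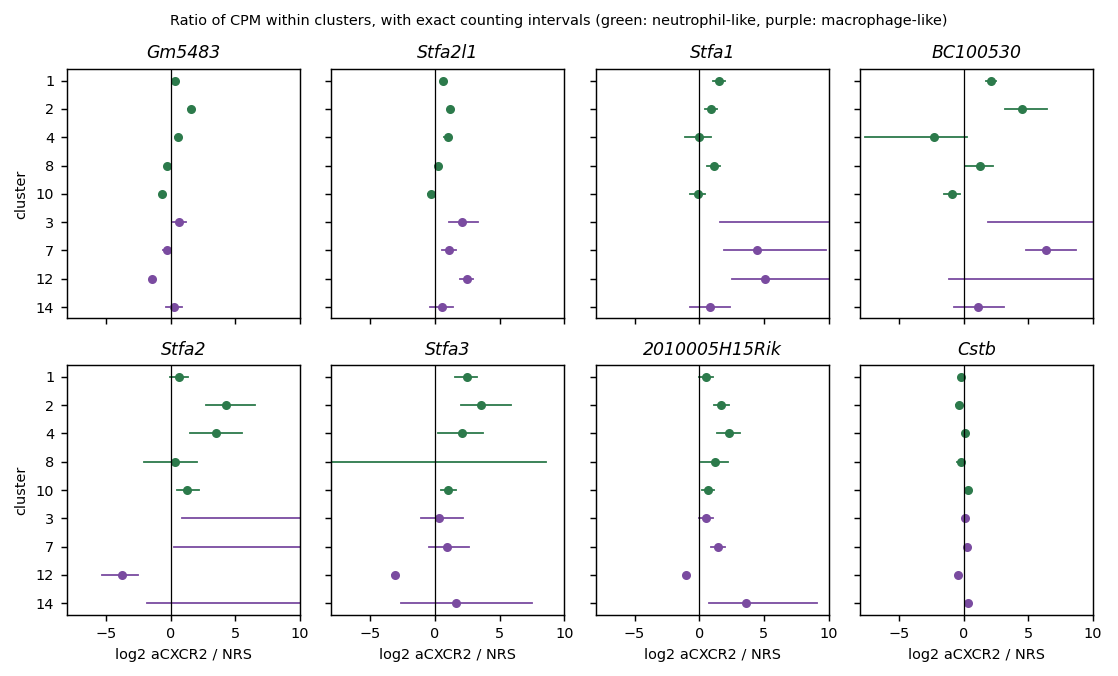
Log2 ratio of CPM, aCXCR2 over NRS, for each gene (panels) in each neutrophil-like (green) or macrophage-like (purple) cluster with at least 30 cells of both libraries (rows), with exact 95% counting intervals as lines. Intervals are drawn between −8 and 10, and a line without a point marks a gene at 0 UMIs in either library. Cstb lies between −0.40 and 0.33 in the 9 clusters drawn, and Stfa3 in cluster 12 lies at −3.12.

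The 5 less abundant stefin A genes were concentrated in few cells, while Gm5483 and Stfa2l1 were seen in many. Gm5483 had a UMI in 59.5% of aCXCR2 and 30.8% of NRS neutrophil-like cells, with a mean of 34.2 and 14.9 UMIs in those cells and a highest count of 363 and 143. Stfa2l1 was seen in 60.4% of aCXCR2 and 28.0% of NRS cells, with a mean of 26.0 and 9.95 UMIs where present. The other 5 were seen in 10.9% to 18.5% of aCXCR2 cells and 1.38% to 4.15% of NRS cells. Stfa1 averaged 22.8 UMIs in its 411 aCXCR2 cells and 8.87 in its 76 NRS cells. In the aCXCR2 library 46 cells, 1.75% of the class, held 50% of all Stfa1 UMIs, and in the NRS library 8 cells did, 0.316%. Cstb was spread more evenly, with a UMI in 82.9% of aCXCR2 and 86.4% of NRS cells, and it took 239 aCXCR2 and 340 NRS cells to hold 50% of its UMIs. For stefin A genes of low class average, single cells thus decide the level: in the NRS library 5 cells held 54.5% of Stfa2, 49.9% of BC100530 and 38.6% of Stfa1 UMIs.

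**Figure D3:**
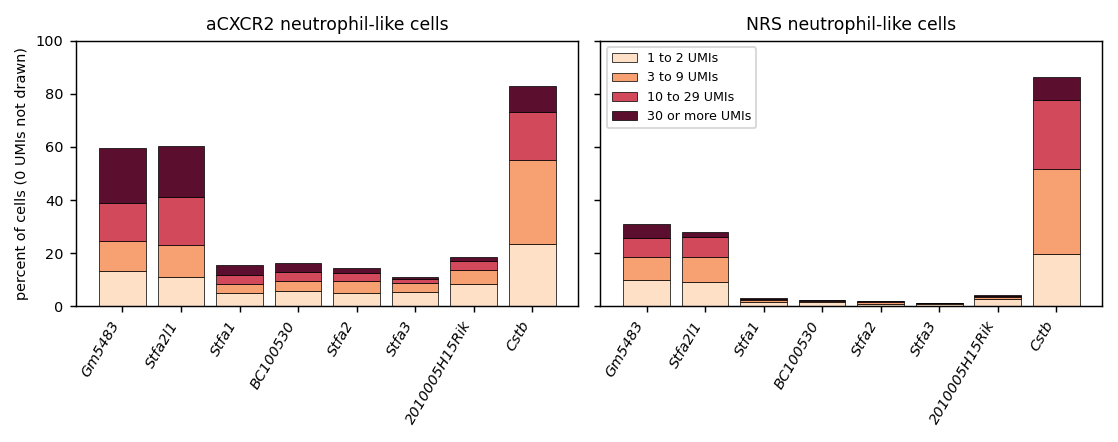
Percent of neutrophil-like cells with 1 to 2, 3 to 9, 10 to 29 and 30 or more UMIs of each gene, stacked, in aCXCR2 cells (left) and NRS cells (right), with no thinning. Gm5483 has 30 or more UMIs in 20.6% of aCXCR2 and 5.02% of NRS cells.

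If every cell of a cluster held a gene at the cluster's mean share of UMIs, Poisson sampling at each cell's depth would give a known share of cells with a UMI. For Stfa1 that share was 80.7% in aCXCR2 and 21.1% in NRS neutrophil-like cells, while 15.7% and 3.01% had a UMI. For Gm5483 it was 97.7% in aCXCR2 and 90.3% in NRS, while 59.5% and 30.8% had one. Observed shares thus fell short for both genes, and over all genes with at least 50 CPM the shortfall was small. The median ratio of observed to Poisson shares was 0.929 over 2317 genes in aCXCR2 and 0.933 over 2974 in NRS, and 5% of genes lay under 0.739 and 0.749. The ratio was 0.194 for Stfa1, 0.206 for BC100530, 0.209 for Stfa2, 0.229 for Stfa3 and 0.280 for 2010005H15Rik in aCXCR2 cells, which ranked 4, 7, 8, 9 and 10 from the lowest of 2317. Gm5483 at 0.610 and Stfa2l1 at 0.628 ranked 43 and 51. In NRS cells the 7 ratios ran from 0.143 for Stfa1 to 0.383 for Stfa3. Among the lowest in both libraries were also the haemoglobin genes, which belong to red cells. Cstb, at 0.886 in aCXCR2 and 0.918 in NRS, was close to the median gene.

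**Figure D4:**
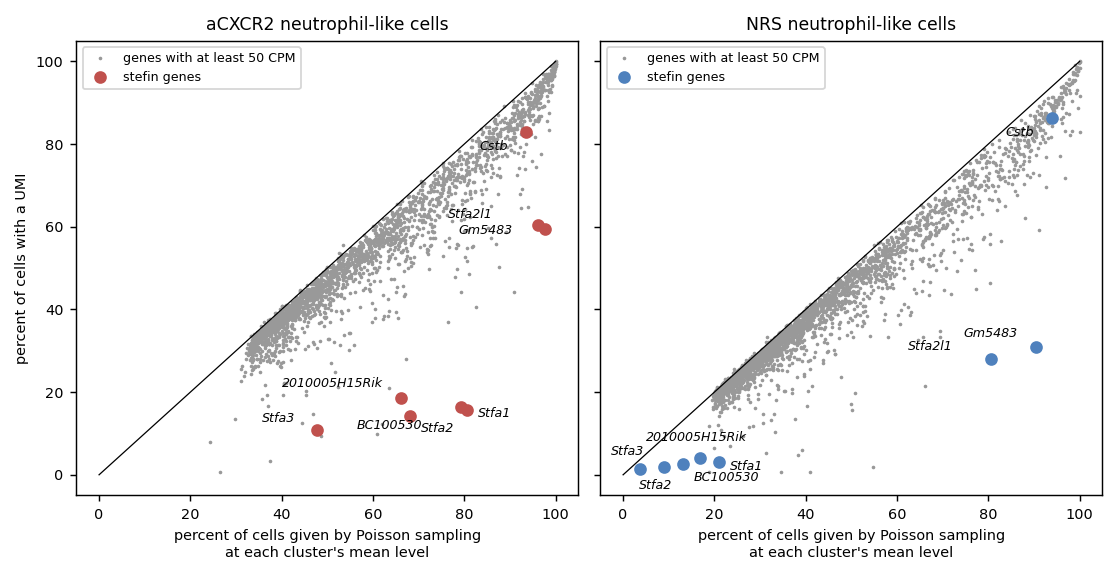
Percent of neutrophil-like cells with a UMI of a gene (vertical axis) against the percent given by Poisson sampling at each cluster's mean level (horizontal axis), for genes with at least 50 CPM (grey) and the 8 stefin genes (coloured), aCXCR2 left and NRS right; the line marks equality. The 7 stefin A genes lie under the line in both libraries, with the NRS values of 5 of them near the lower left corner, and Cstb lies near it.

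The 7 genes were found in the same cells more often than their single shares give. In thinned neutrophil-like cells, all 21 stefin A pairs had more cells with both genes than the product of the shares within clusters, in both libraries. The excess was 1.43-fold to 4.89-fold in aCXCR2 cells (median 1.78) and 2.63-fold to 19.1-fold in NRS cells (median 3.48), where many pairs rest on few cells. Stfa2l1 and Gm5483, the most abundant pair, were both seen in 754 of 2578 aCXCR2 cells, where the shares within clusters give 512, and in 277 of 2354 NRS cells, where they give 102. Gm5483 was seen in 66.1% of aCXCR2 cells with Stfa2l1 and 22.5% of those without, and in 63.1% and 11.8% of NRS cells. The highest excess in aCXCR2 cells was that of Stfa3 with BC100530, seen together in 52 cells where the shares give 10.6. In NRS cells the same pair, at 19.1-fold, rests on 2 cells. The 7 pairs with Cstb lay between 0.952 and 1.06 in aCXCR2 cells and 0.933 and 1.10 in NRS cells. Thinning to 1 depth removes differences in total UMIs, and other differences among cells of a cluster were not tested. The part of reads within 2 mismatches of another member in these pairs was not tested either.

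**Figure D5:**
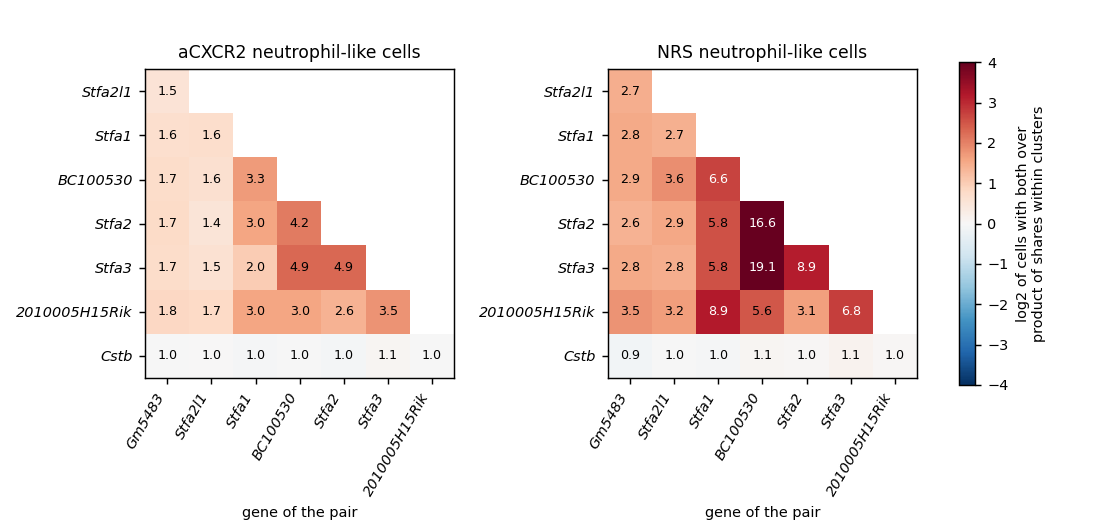
Thinned neutrophil-like cells with both genes of a pair over the number given by the product of their shares within clusters (printed ratio; colour is its log2, from −4 to 4), aCXCR2 left and NRS right. All 21 stefin A pairs are above 1 in both libraries and the pairs with Cstb are near 1.

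Cells rich in stefin A mostly had 1 leading member, and the number of members differed between the libraries. At least 20 stefin A UMIs were found in 1105 aCXCR2 neutrophil-like cells (42.1%), which held 95.5% of the stefin A UMIs of the class, and in 297 NRS cells (11.7%), which held 79.7%. These cells had a median of 3 members in aCXCR2 and 2 in NRS. They were not thinned, and had a median of 71 stefin A UMIs in aCXCR2 and 43 in NRS. The part of that difference in the number of members seen was not tested. Only 1 or 2 members were seen in 412 of the aCXCR2 cells (37.3%) and 195 of the NRS cells (65.7%). All 7 were seen in 32 aCXCR2 cells and 1 NRS cell. The leading member took over 50% of the stefin A UMIs in 74.8% of the aCXCR2 and 89.9% of the NRS cells. It was Gm5483 in 562 aCXCR2 and 194 NRS cells, Stfa2l1 in 413 and 90, and Stfa1 in 71 and 8. Near copies were not always seen in the same cell. BC100530 was at 0 in 69.1% of all these aCXCR2 cells, and in 19 of the 61 with at least 50 Stfa1 UMIs. In those 61 cells 2010005H15Rik was at 0 in 21, Stfa2 in 29 and Stfa3 in 44. In the same way 2010005H15Rik, at 0 in 65.5% of all these cells, was at 0 in 189 of the 382 with at least 50 Gm5483 UMIs, where the other 4 of the less abundant members were at 0 in 240 to 275. Some pairs that are not near copies gave similar shares. 2010005H15Rik was at 0 in 126 of the 264 cells with at least 50 Stfa2l1 UMIs, and BC100530 in 7 of the 22 with at least 50 Stfa2 UMIs. Stfa2, the closest to Stfa2l1 in coding sequence, was at 0 in 160 of those 264, beside 162 for Stfa1 and 158 for BC100530.

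Single cells differed in make-up. The aCXCR2 cell with most Stfa1 had 253 UMIs of it, with 175 of Gm5483, 100 of BC100530, 60 of Stfa2, 8 of 2010005H15Rik, 1 of Stfa3 and 1 of Stfa2l1, the gene that elsewhere comes second. Another aCXCR2 cell had the most UMIs of BC100530, Stfa2 and Stfa3, 385, 222 and 98, and 0 of Stfa1. Both were in neutrophil-like clusters (6 and 2) and carried 1891 and 1618 UMIs of S100a8. The NRS cell with most Stfa1 had 57 UMIs of it, 47 of Stfa2l1, 45 of Gm5483 and 30 of 2010005H15Rik, and 0 of BC100530, Stfa2 and Stfa3. The cell with most Cstb among aCXCR2 neutrophil-like cells had 166 UMIs of it and 0 of all 7 stefin A genes. With 385 UMIs of BC100530 and 0 of Stfa1 in 1 cell, the near copies were counted apart there.

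The make-up of the stefin A UMIs differed between the libraries. In neutrophil-like cells Gm5483 took 43.1% in aCXCR2 and 56.5% in NRS, and Stfa2l1 33.2% and 34.3%. The other 5 together had larger shares in aCXCR2: Stfa1 took 7.55% in aCXCR2 and 3.27% in NRS, and BC100530 6.60% and 1.82%. Stfa2 took 3.97% in aCXCR2 and 1.24% in NRS. 2010005H15Rik took 3.79% and 2.47%, and Stfa3 1.74% and 0.466%. In photoreceptor-like cells Gm5483 was again the highest, with 47.7% of 65 UMIs in aCXCR2 and 65.1% of 86 in NRS. Stfa2l1 had a smaller share there than in neutrophil-like cells, 13 of 65 UMIs in aCXCR2 (interval 11.1% to 31.8%) and 15 of 86 in NRS (10.1% to 27.1%). Stfa1 had 15.4% in aCXCR2 (7.63% to 26.5%) and 2.33% in NRS, and 2010005H15Rik 9.23% and 8.14%.

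In macrophage-like cells the summed stefin A genes were lower than in neutrophil-like cells of the same library, and their make-up was another one. The summed level was 218 CPM in aCXCR2 and 363 CPM in NRS, a log2 ratio of −0.73 (−0.78 to −0.69). 2010005H15Rik, a minor member in neutrophil-like cells, was the highest here, with 69.1 CPM in aCXCR2 and 132 CPM in NRS (−0.93). In the NRS library its macrophage-like level was above the neutrophil-like level of 42.8 CPM, and 73.6% of its UMIs lay in macrophage-like cells. Gm5483 had 63.3 CPM in aCXCR2 and 115 CPM in NRS (−0.87). Stfa3 had 10.6 CPM in aCXCR2 and 105 CPM in NRS (−3.32). Of the NRS Stfa3 UMIs 91.5% lay in macrophage-like cells, against a neutrophil-like level of 8.08 CPM in that library. These 3 ratios have the opposite sign to those in neutrophil-like cells. Of the 3 members with at least 50 CPM in either library, 0 were at least 2-fold higher in aCXCR2, against 4.7% of 2851 genes, and 1, Stfa3, was at least 2-fold lower, against 2.46%. Stfa2l1, with 33.7 CPM in aCXCR2 and 6.77 CPM in NRS (2.32), and Stfa1, with 9.62 and 0.639 CPM (3.91), kept the sign of the neutrophil-like cells. In photoreceptor-like cells, the background for free RNA, Stfa1 had a similar level and ratio, 6.24 CPM in aCXCR2 and 0.253 CPM in NRS (4.63, from 10 and 2 UMIs), and Stfa2l1 had 8.11 CPM in aCXCR2 and 1.89 CPM in NRS (2.10). Cstb was nearly level, with 1528 CPM in aCXCR2 and 1687 CPM in NRS (−0.14).

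A few NRS cells carried the macrophage-like difference. Cluster 12, led by Arg1, Fn1 and Cxcl3, held most of the NRS stefin A UMIs of the class, with 577 CPM in aCXCR2 and 1550 CPM in NRS. Its cells were deep, with a median of 24882 UMIs over both libraries. In this cluster 2010005H15Rik took 48.6% of the stefin A UMIs in aCXCR2 and 37.6% in NRS, Gm5483 29.7% and 30.1%, Stfa3 9.51% and 30.8%, and Stfa2l1 10.1% and 0.696%. In the NRS library 5 cells, all of cluster 12, held 73.7% of the stefin A UMIs of the class. The first had 1005 UMIs of Gm5483, 483 of 2010005H15Rik, 366 of Stfa3 and 31 of Stfa2, with 0 of Stfa1, Stfa2l1 and BC100530. The fourth had 449 UMIs of Stfa3, 82 of 2010005H15Rik and 9 of Gm5483. All 5 had 0 of Stfa2l1, the second most abundant member in neutrophil-like cells, and 0 of BC100530. They carried 145 to 447 UMIs of Arg1, the arginase of alternatively activated macrophages, with 3 to 46 of S100a8, 0 to 3 of Csf3r and 0 of Retnlg. Il1b, which encodes interleukin 1 beta, had 952 and 852 UMIs in cells 1 and 5 and 1 or 2 in the others.

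Without the 5 cells with most UMIs in each library, the summed macrophage-like level was 157 CPM in aCXCR2 and 96.7 CPM in NRS, and the log2 ratio turned to 0.70 (0.62 to 0.78). The ratio of Gm5483 turned to 1.09 and that of 2010005H15Rik to 0.55 when the 5 cells with most of that gene were left out, while that of Stfa3 was −1.48. By cluster the summed ratio was 1.49 in cluster 7, 1.10 in cluster 3, 0.61 in cluster 14 and −1.42 in cluster 12. At least 20 stefin A UMIs were found in 105 aCXCR2 macrophage-like cells (5.95%), 39 of them in cluster 12, and in 26 NRS cells (4.30%), 22 of them in cluster 12. At least 10 UMIs of 2010005H15Rik were found in 89 aCXCR2 and 20 NRS macrophage-like cells, of which 66 and 18 had 0 of Stfa2l1.

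Neutrophil transcripts were present among the macrophage-like cells. The 12 neutrophil markers summed to 4505 CPM in aCXCR2 and 2407 CPM in NRS macrophage-like cells, with 11 of 12 higher in aCXCR2 and none at 0. Retnlg had 56.8 CPM in aCXCR2 and 0.447 CPM in NRS macrophage-like cells. In cluster 12 the 12 markers summed to 6765 CPM in aCXCR2 and 4534 CPM in NRS, with 9 of 12 higher in aCXCR2 and none at 0. Of the 5 aCXCR2 macrophage-like cells with most stefin A, 3 had 365 to 1006 UMIs of S100a8 and 83 to 120 of Stfa2l1. The part of neutrophil RNA or of doublets in the macrophage-like values was not tested.

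BC100530 was also abundant in barcodes with keratin transcripts. Its ratio in macrophage-like cells, with 27.5 CPM in aCXCR2 and 0.511 CPM in NRS, was 5.75, and 4.14 without 1 barcode. That barcode and another of the aCXCR2 library had at least 100 UMIs of Krt13, a keratin of stratified epithelium. The first of these, in cluster 15, had 4055 UMIs of BC100530, 110 of Stfa3 and 76 of Stfa1, with 0 of Gm5483, Stfa2l1 and Stfa2. It also had 1206 UMIs of Krt13, 1448 of Plet1 and 5 of S100a8. The second, in cluster 7, had 1009 UMIs of BC100530 and 660 of Krt12, the keratin of corneal epithelium. Together the 2 barcodes held 36.6% of all BC100530 UMIs of the aCXCR2 library, 143 of its 2862 Stfa3 UMIs and 99.4% of the 1262 UMIs of Csta1, a further stefin A gene. Gm5483 and Stfa2l1, the leading genes of neutrophil-like cells, had 1 UMI each in the 2 barcodes.

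Over all kept cells, with no use of clusters, the summed stefin A genes had 1771 CPM in aCXCR2 and 685 CPM in NRS, a log2 ratio of 1.37 (1.35 to 1.39). Of the 6 members with at least 50 CPM in either library, 5 were at least 2-fold higher in aCXCR2, against 4.79% of 3550 genes, a count that the choice of the genes fixed. The exception was 2010005H15Rik, with 105 CPM in aCXCR2 and 59.0 CPM in NRS (0.83). BC100530 had 169 CPM in aCXCR2 and 14.2 CPM in NRS (3.58, and 2.92 without the 2 keratin barcodes). Stfa3 was nearly level at 35.0 CPM in aCXCR2 and 37.9 CPM in NRS (−0.11, and 0.41 under TMM), and its ratio was 1.88 without the 5 cells with most Stfa3 in each library. In the NRS library 3 cells held 50% of its UMIs, and the 5 cells with most were all of cluster 12. Cstb had 1389 CPM in aCXCR2 and 1970 CPM in NRS (−0.50, and 0.023 under TMM). Unnamed cluster 11, whose cells carried both rod and neutrophil markers, had 3383 CPM of stefin A in aCXCR2 and 1017 CPM in NRS.

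Of 11 cysteine proteases listed, the class of enzyme that cystatins inhibit, 7 had at least 50 CPM in either library of neutrophil-like cells. Of these, 0 were at least 2-fold higher in aCXCR2, against 2.15% of all genes, and 1 was at least 2-fold lower, against 8.85%, with a median log2 ratio of −0.56. The lower one was Lgmn, encoding legumain, an asparaginyl protease of lysosomes, with 26.9 CPM in aCXCR2 and 63.0 CPM in NRS (−1.23). Ctsb, encoding cathepsin B, had 962 CPM in aCXCR2 and 1418 CPM in NRS (−0.56). Ctsc, encoding cathepsin C, was the highest of the 7 by ratio, with 192 CPM in aCXCR2 and 100.1 CPM in NRS (0.94). TMM factors the 7 gave 1 higher, Ctsc at 1.57, and 0 lower, and the median turned to 0.071, with Ctsb at 0.071 and Lgmn at −0.60. In macrophage-like cells the 7 proteases with at least 50 CPM gave 0 higher, against 4.7% of all genes, and 0 lower, against 2.46%, with a median of −0.25 beside 0.12 for all genes.

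Of 18 further cystatin symbols listed, 14 were in the feature tables and 2 had at least 50 CPM in neutrophil-like cells, with neither 2-fold apart. The symbols not found include Csta2, the RefSeq name of 2010005H15Rik, which is a member and was counted under that symbol. Cst3, encoding the secreted cystatin C, had 716 CPM in aCXCR2 and 823 CPM in NRS (−0.20, and 0.43 under TMM). Gm5416, a gene model inside the stefin A cluster (chr16:36210403-36217788, plus strand, between Gm5483 and 2010005H15Rik), had 27.6 CPM in aCXCR2 and 50.3 CPM in NRS (−0.87, interval −1.03 to −0.70). Its ratio had the opposite sign to those of its neighbours on both sides, also under TMM (−0.24) and median of ratios factors (−0.18). BC117090, likewise in the cluster, had 28 UMIs in aCXCR2 and 2 in NRS neutrophil-like cells.

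Of 14 neutrophil state genes, 10 had at least 50 CPM in either library of neutrophil-like cells. Of these, 4 were higher in aCXCR2 by 2-fold or more and 2 were lower by as much, against 2.15% and 8.85% of all 3063 genes, with a median log2 ratio of 0.53. Those higher were Retnlg at 3529 CPM in aCXCR2 and 192 CPM in NRS (4.20), Ngp (4.94), Ly6g (2.77) and Mmp8 (1.75). Over all kept cells Ngp had 3211 UMIs in aCXCR2, 869 of them in 1 cell, and 67 in NRS. Camp, also of this list, had 962 UMIs in aCXCR2 over the same cells, 363 of them in 1 cell, and 1099 in NRS. Those lower were Gdf15, a stress-induced cytokine gene, at 25.4 CPM in aCXCR2 and 179 CPM in NRS (−2.82), and Ltf, encoding lactoferrin (−1.80). Cxcr2, which encodes the receptor the antiserum was raised against, had 746 CPM in aCXCR2 and 581 CPM in NRS (0.36). Under TMM factors 6 of the 10 were higher and 2 lower by 2-fold, against 260 and 30 of the 3063 genes.

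The genes with the pattern most like the summed stefin A genes were ranked over the 29 sums of a cluster in a library with at least 30 cells, on log2(CPM + 10), among 7588 genes. The 8 closest by Pearson correlation were Dusp16 (0.946), Glipr2 (0.940), Upp1 (0.937), Spata13 (0.930), Qsox1 (0.921), Dgat2 (0.916), S100a8 (0.915) and Socs3 (0.913). Cstb had 0.175. Set against the sum of the other 6, the members ranged from 0.968 for Gm5483 to 0.593 for Stfa3. These 29 points share 2 libraries, and their depth and composition. Among single thinned neutrophil-like cells (4932 cells, 2140 genes) the links were weak and are given as values only. The 8 highest phi coefficients, taking the lower library, ran from 0.155 for Hdc to 0.111 for S100a11, with Srgn, S100a9, S100a8, Ifitm1, Asprv1 and Cd14 between. Phi among stefin A pairs themselves ran from 0.08 to 0.44 in aCXCR2 cells and 0.04 to 0.49 in NRS cells.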

How the data were processed

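Both deposited matrices give whole UMI counts for each gene in each barcode, raw per the file headers, which name software version 3.0.0. Cell Ranger and Seurat appear in the submitters' processing notes with no version, beside a human build; gene IDs are of mouse, and no mouse build is named in the sources used here. Positions are from GENCODE vM21. CPM is the sum of a gene's counts in a class of 1 library over the sum of all counts there. CPM intervals are exact Poisson, share intervals Clopper-Pearson and ratio intervals exact conditional, at 95%. They cover counting error only. As a floor apart from these intervals, a count of 0 was taken to allow 3 counts. Depth was 85748842 UMIs in aCXCR2 and 61386486 in NRS.

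Clustering (scanpy 1.11.5, leidenalg 0.10.2) left out the 8 genes and used 2000 variable genes, 30 principal components, 15 neighbours and resolution 1, with no correction for library. Clusters were named from marker lists by a scoring rule set after the data were seen: capped levels over a prior of 100 CPM, a score of at least 0.2, and no other class scoring over 50% of the best. Scrublet called 4 aCXCR2 and 0 NRS cells, which is too few for it to have worked, so doublets remain; an alternative removed the 186 aCXCR2 and 256 NRS cells with the highest scores. Cells were thinned to 1000 UMIs before shares were compared. The 8 genes and all gene lists were chosen with earlier results of these data known. Named genes were the 8 members, the listed proteases, cystatins and neutrophil state genes, and the 8 genes most alike by either measure; the Krt13 barcodes and the genes given for single cells were singled out after their values were seen. Ratios and intervals were tested on simulated counts. Python 3.11.15, numpy 2.4.6, scipy 1.17.1, pandas 2.3.3 and Biopython 1.88 were used, with TMM factors from edgeR 4.0.16 in R 4.3.3. The alternatives changed the cell filter, clustering, naming, scaling, thinning depth and CPM minimum, or left out a cluster, shared barcodes or single cells.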

Additional observations from a re-analysis of the deposited data

Results flagged for a closer look

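Between macrophage-like and neutrophil-like cells, the ratio of aCXCR2 over NRS had opposite signs for the summed stefin A genes and 3 members. In macrophage-like cells the log2 ratio was −0.73 for the sum, −3.32 for Stfa3, −0.87 for Gm5483 and −0.93 for 2010005H15Rik, against 1.63, 3.53, 1.24 and 2.25 in neutrophil-like cells. With 1 library per group this difference between classes was not tested. Leaving out the 5 cells with most UMIs in each library turned the macrophage-like ratios of the sum, Gm5483 and 2010005H15Rik to 0.70, 1.09 and 0.55, and left that of Stfa3 at −1.48.

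Stefin A transcripts were also found among barcodes outside all comparisons above. In 524 aCXCR2 barcodes left out for their mitochondrial share alone, the summed stefin A genes had 1383 CPM (interval 1345 to 1421), and in 1521 such NRS barcodes 129 CPM (123 to 135). Gm5483 was the highest member there too, with 748 CPM in aCXCR2 and 69.7 CPM in NRS.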

How the results depend on the processing

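Log2 ratios of the stefin A sum and Cstb in neutrophil-like cells, and of the sum in all cells, kept their sign under each alternative. The thinned aCXCR2 share stayed above the NRS share. The NRS percent of stefin A UMIs in neutrophil-like cells did not stay above 50%, with 47.8 at Leiden resolution 0.5 and 21.8 with a naming prior of 10 CPM. The reported values are a log2 ratio of 1.63 for the stefin A sum and −0.91 for Cstb in neutrophil-like cells, 1.37 for the sum in all cells, 85.5% of aCXCR2 and 63.2% of NRS stefin A UMIs in neutrophil-like cells, thinned shares of 60.5% of aCXCR2 and 29.4% of NRS cells, and 66 genes at least 2-fold higher. Alternatives that shifted a value by more than its counting interval, or the gene count by over 1.5 times, follow in the same units. 

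Leiden resolution 0.5 gave 1.57 for stefin A, −0.53 for Cstb, 88.3 for the aCXCR2 percent and 47.8 for the NRS percent. Leiden resolution 2 gave 1.46 for stefin A, −0.58 for Cstb, 51.4 for the NRS percent and 31.6 for the NRS share. TMM factors gave 2.26 for stefin A, −0.28 for Cstb, 1.90 for stefin A in all cells and 260 for the gene count. Leaving out cluster 1 gave 1.94 for stefin A, −0.50 for Cstb and 26.7 for the NRS share. Leaving out cluster 10 gave 1.67 for stefin A, −1.26 for Cstb and 63.5 for the aCXCR2 share. Leaving out cluster 2 gave 1.66 for stefin A and −0.67 for Cstb. Leaving out cluster 4 gave 1.39 for stefin A, −1.10 for Cstb and 34.1 for the NRS share. Leaving out cluster 6 gave 1.56 for stefin A, −0.60 for Cstb and 57.4 for the aCXCR2 share. Leaving out cluster 8 gave 1.77 for stefin A, −1.09 for Cstb, 26.9 for the NRS share and 146 for the gene count. Leaving out cluster 9 gave 1.48 for stefin A, −0.97 for Cstb and 57.0 for the aCXCR2 share. Removing the highest doublet scores gave 1.55 for stefin A, −1.01 for Cstb, 1.39 for stefin A in all cells, 89.7 for the aCXCR2 percent and 65.3 for the NRS percent. Clustering each library alone gave 1.82 for stefin A, −1.03 for Cstb, 88.1 for the aCXCR2 percent, 65.1 for the NRS percent and 27.0 for the NRS share. Taking the mean of per-cell shares gave 1.46 for stefin A, −0.76 for Cstb and 1.54 for stefin A in all cells. Median of ratios factors gave 2.31 for stefin A, −0.23 for Cstb, 1.96 for stefin A in all cells and 294 for the gene count. Clustering with the 8 genes kept gave 1.40 for stefin A, −0.60 for Cstb, 89.0 for the aCXCR2 percent, 59.4 for the NRS percent and 33.2 for the NRS share. A naming prior of 10 CPM gave 1.5 for stefin A, −0.67 for Cstb, 84.3 for the aCXCR2 percent, 21.8 for the NRS percent, 34.5 for the NRS share and 43 for the gene count. No mitochondrial filter gave 1.87 for stefin A, −1.26 for Cstb, 1.64 for stefin A in all cells, 85.0 for the aCXCR2 percent and 26.3 for the NRS share. The strict cell filter (1000 UMIs, 500 genes, 5% mitochondrial) gave 1.87 for stefin A, −1.13 for Cstb, 1.18 for stefin A in all cells, 89.2 for the aCXCR2 percent, 69.0 for the NRS percent and 27.1 for the NRS share. Counting cluster 0 as neutrophil-like gave 2.16 for stefin A, −1.40 for Cstb, 66.1 for the NRS percent, 21.9 for the NRS share and 130 for the gene count. Counting clusters 0 and 11 so gave 2.18 for stefin A, −1.24 for Cstb, 88.8 for the aCXCR2 percent, 82.0 for the NRS percent, 22.7 for the NRS share and 146 for the gene count. A minimum of 10 CPM gave 124 for the gene count. No CPM minimum gave 1686 for the gene count. Leaving out the 5 cells with most stefin A UMIs of each library gave 1.49 for stefin A in all cells, 89.1 for the aCXCR2 percent and 72.5 for the NRS percent. Leaving out shared barcodes gave 1.21 for stefin A in all cells and 88.8 for the aCXCR2 percent. No thinning gave 76.5 for the aCXCR2 share and 40.7 for the NRS share. Thinning to 2000 UMIs gave 67.1 for the aCXCR2 share and 35.8 for the NRS share. Thinning to 500 UMIs gave 50.5 for the aCXCR2 share and 23.7 for the NRS share.

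Ratios of single members and list medians were set against TMM and median of ratios factors and single-cell exclusions, 105 values in all, of which 12 turned sign. Over all cells Stfa3 turned to 0.41 under TMM, 0.47 under median of ratios and 1.88 without the 5 cells with most of it, and Cstb to 0.023 and 0.084 under the same factors. In macrophage-like cells, leaving out the 5 cells with most UMIs gave 0.70 for the sum, 1.09 for Gm5483 and 0.55 for 2010005H15Rik. The neutrophil-like medians turned to 0.071 and 0.12 for the proteases and to 0.10 and 0.15 for the 2 other cystatins under those factors, which shift every gene of a class alike.

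Counting clusters 0 and 11 as neutrophil-like, and leaving out the top 5 cells or keratin barcodes, were chosen after the data were seen. Why values shifted was not tested where the alternative does not itself show it. No paired analysis was possible because each group had 1 library. Depth was lower in NRS cells, so low members there rest on few UMIs: Stfa3 had 96 in all NRS neutrophil-like cells, and values of single members within clusters rest on fewer.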
